A study of Mus musculus with 12 samples.

Results

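Array probes were followed for the COMP-cleaving enzymes Adamts7 and Adamts12 and for 6 further ADAMTS genes, Adamts6, Adamts10, Adamts16, Adamts17, Adamts18 and Adamts19. A probe was taken when its gene symbol was 1 of these 8. The array table carried 16 probes for these 8 genes, out of 46632 probes and 34509 symbols. A probe was kept for testing when its detection p-value was under 0.05 on at least 4 of 12 arrays, which left 5 probes, 1 each for Adamts6, Adamts7, Adamts10, Adamts12 and Adamts18. The RNA came from cultured femoral head cartilage of 21-day-old TS-4/5∆cat mice. All 3 groups, controls included, lack the catalytic domains of ADAMTS-4 and ADAMTS-5, so no wildtype cartilage stands behind any value here. Explants were left untreated, given 10 ng/mL IL-1α or given 10 µM retinoic acid for 3 days. Each treatment had 4 arrays, 2 from the mouse line named Donut (batch 1) and 2 from the line named Gertrude (batch 2), so line and batch cannot be told apart. The labels put 4 hips in a well after 24 h in serum, whereas the study's methods describe unpooled mice without serum. The labels speak of triplicates and the methods of fewer mice per treatment than there are arrays, so n = 4 counts arrays and may exceed the number of animals. Which arrays came from separate mice is not known, and p-values measure the spread between arrays, which may be technical.

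ADAMTS enzymes are secreted zinc metalloproteinases that carry thrombospondin repeats and cut proteins of the extracellular matrix. ADAMTS-7 and ADAMTS-12 resemble each other most closely and are known for cutting cartilage oligomeric matrix protein (COMP), a pentameric glycoprotein of cartilage matrix and tendon. ADAMTS-6, ADAMTS-10 and ADAMTS-17 act on fibrillin microfibrils, the scaffolds that store latent TGF-β, and inherited loss of ADAMTS-10 or ADAMTS-17 gives short stature in people. ADAMTS-16 and ADAMTS-18 form another pair by sequence, as do ADAMTS-17 and ADAMTS-19.

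A bead array reads each transcript as the brightness of a short probe. Across the arrays the median raw intensity was 34.3 to 63.3, and 13786 to 19485 probes were detected, more in batch 2 (16732 to 19485) than in batch 1 (13786 to 14965). The untreated replicate 2 array of batch 2 stood apart with the 19485 detected probes. The values below are log2 intensities after background correction, with 16 added to every value before the logarithm. This addition understates changes of dim probes, and it puts the lowest detected signal of an array between 4.86 and 5.48. Of 8 chondrocyte markers, 7 were detected on all 4 untreated arrays, 7 on all IL-1α arrays and 6 on all retinoic acid arrays, whereas Matn3 was detected on none. The summed normalized intensity of these 8 markers was 53148 to 62697 untreated, 33073.5 to 42933 with IL-1α and 9923 to 15059 with retinoic acid. In whole tissue, fewer cells of a type and less RNA per cell cannot be told apart.

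Detection set the limit for most members. Of the 16 probes, 8 were detected on no array, 3 on 1 to 3 arrays, 4 on 4 to 11 arrays and 1 on all 12. Among all probes of the table, 52.8% were detected on no array and 24.1% on all 12. Adamts12 probe ILMN_1234413 was the member read on every array, with raw intensities of 99.8 to 429.1 over an estimated background of 32.3 to 55.6. Adamts6 probe ILMN_1251521 was detected on 11 arrays and the single Adamts7 probe, ILMN_2624328, on 10. Adamts18 probe ILMN_1256970 was detected on 8 arrays, and at a detection p under 0.01 on 0 of 12. Adamts10 probe ILMN_1229828 was detected on 4 arrays, all in batch 2.

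**Figure D1:**
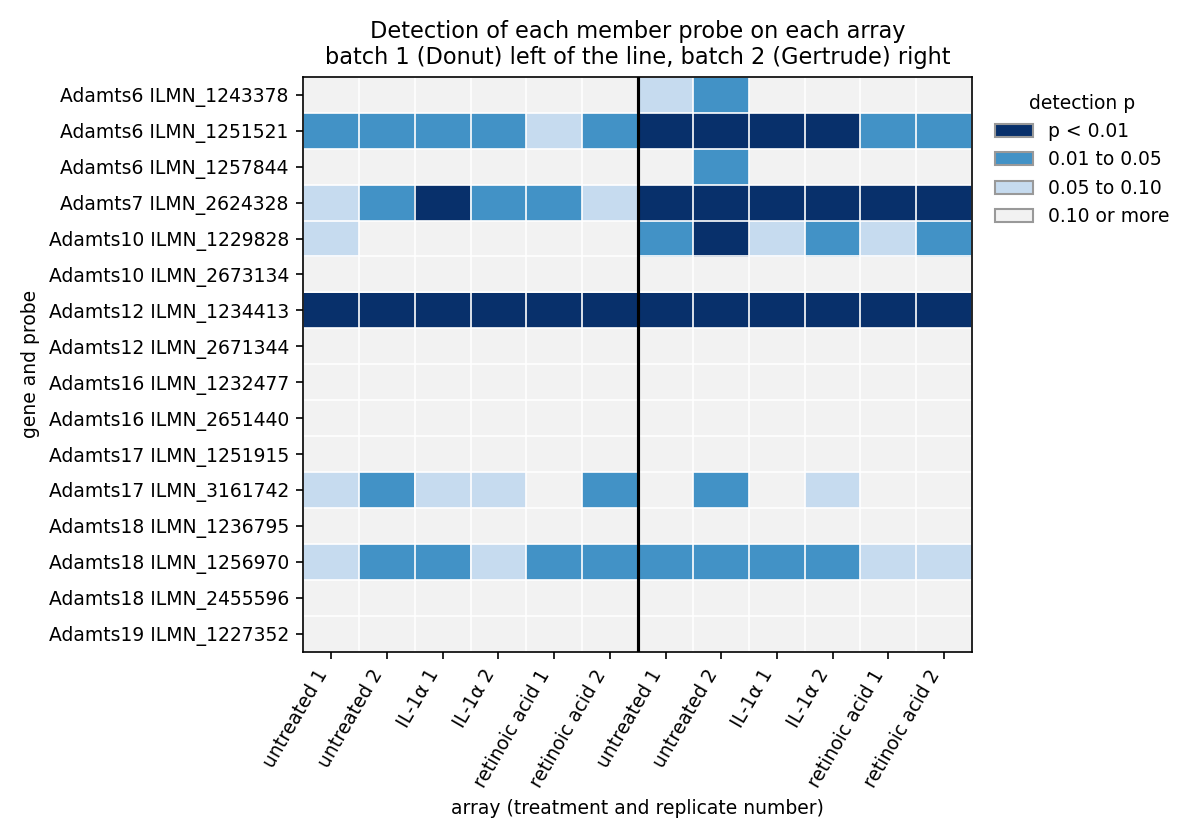
Detection p-value class of each of the 16 member probes (rows) on each of the 12 arrays (columns), with batch 1 left of the line and batch 2 right of it; darker squares have smaller p-values. Adamts12 probe ILMN_1234413 is dark on all 12 arrays, and 8 probes are never under 0.05.

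The COMP-cleaving pair moved in opposite directions with IL-1α. Adamts7 rose 1.70-fold over untreated cartilage and Adamts12 fell 1.90-fold, while neither differed detectably from untreated with retinoic acid. These were the 2 members called for IL-1α against untreated, 1 higher and 1 lower among the 5 kept. Over all 18200 kept probes, 29.3% were called in that comparison, 15.2% higher and 14.1% lower, so a call by itself does not set these genes apart.

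**Figure D2:**
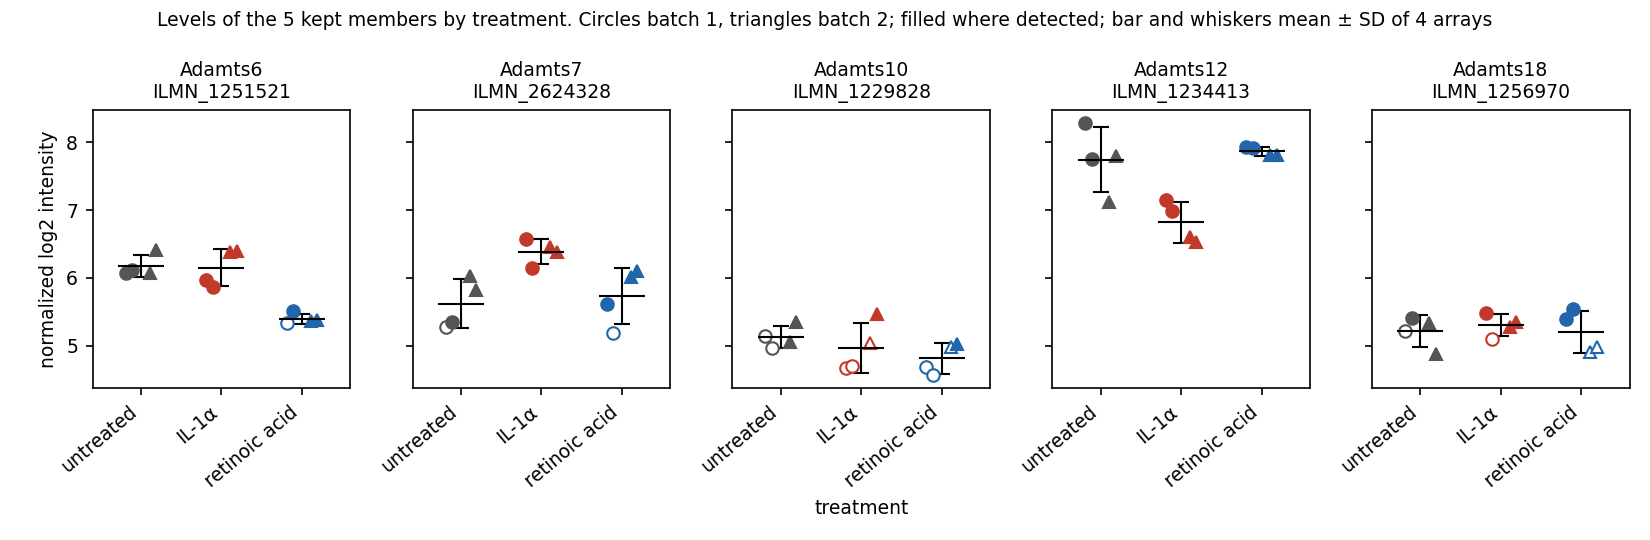
Normalized log2 intensity (vertical axis) of the 5 kept member probes by treatment, with circles for batch 1, triangles for batch 2, filled symbols where the probe was detected, and a bar with whiskers for the mean ± SD of 4 arrays. The IL-1α arrays lie highest for Adamts7 and lowest for Adamts12 within each batch, and the retinoic acid arrays lie lowest for Adamts6.

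Adamts7 (ILMN_2624328) encodes a COMP-cleaving proteinase with a mucin-like region. Without treatment its log2 intensity was 5.28 and 5.35 on the batch 1 arrays and 6.03 and 5.81 on those of batch 2. After IL-1α it was 6.57 and 6.14 for batch 1 and 6.46 and 6.38 for batch 2. All 4 IL-1α arrays therefore lay above all 4 untreated arrays, and the untreated arrays of the batches did not meet. After retinoic acid it was 5.62 and 5.19 for batch 1 and 6.01 and 6.09 for batch 2, on either side of or close to the untreated arrays of the same batch. IL-1α explants averaged 6.39 ± 0.18 (SD, n = 4), untreated ones 5.62 ± 0.36 (SD, n = 4) and retinoic acid ones 5.73 ± 0.41 (SD, n = 4). IL-1α exceeded untreated by 0.77 ± 0.15 (SE) on the log2 scale, with an adjusted p of 0.00223 in limma. Exact permutation of the 8 arrays, two-sided, gave p = 0.0286, the minimum for this size. Groups of 4 against 4 that did not overlap in this comparison were found for 13.5% of all kept probes. Within batch 1 the difference was 1.04 (adjusted p = 0.00306 from limma), and within batch 2 it was 0.50 and was not called (adjusted p = 0.0567 from limma). The untreated replicate 1 array and the retinoic acid replicate 2 array of batch 1 were below detection, so the batch 1 difference is not an exact size.

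Between the treatments, Adamts7 was lower after retinoic acid than after IL-1α by a log2 difference of −0.66 ± 0.15 (SE), with an adjusted p of 0.00451 in limma and no overlap between the 8 arrays. It was 1 of 3 members called here, with Adamts6 also lower and Adamts12 higher. In that comparison 31.1% of all kept probes were called, 15.2% higher and 15.8% lower, and 17.7% had groups without overlap. The within-batch differences were −0.95 in batch 1 and −0.37 in batch 2, and the call was lost within batch 2 (adjusted p = 0.113 from limma). Scaling to a common median in place of quantile normalization also ended the call, at −0.40 (adjusted p = 0.132 from limma). Retinoic acid against untreated gave 0.11 with an interval (95%) of −0.22 to 0.43 and was not called, while 35.4% of all kept probes were.

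Adamts12 encodes the partner enzyme, which also cuts COMP. Its gene lies on chromosome 15 (GRCm38.p6, 11064773 to 11349232), and the 250 bases before its start, at chr15:11064523-11064772 on the plus strand, are shown because this was the best-measured member and changed with treatment. The sequence is from RefSeq (GRCm38.p6), where 3 of the 8 members had a promoter entry and the window of 1 ended exactly at its gene model. Capitals mark letter matches to the NF-κB type motif, GGG and then CC with any 5 bases between them, and to CANNTG, the E box.

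Adamts12: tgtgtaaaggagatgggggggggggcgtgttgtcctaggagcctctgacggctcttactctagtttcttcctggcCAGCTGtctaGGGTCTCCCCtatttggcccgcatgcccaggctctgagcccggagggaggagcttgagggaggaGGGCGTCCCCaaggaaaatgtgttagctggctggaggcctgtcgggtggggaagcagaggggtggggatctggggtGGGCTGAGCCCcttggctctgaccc

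The NF-κB type motif matched in 3 separate stretches, with 6 matches over both strands, and 46.0% of the 32536 promoter windows of the same length held at least 1 such match. CANNTG matched once and did not overlap the others, and 66.2% of windows held at least 1 such match. The remaining letters searched on both strands were not in this window, namely AGGTCA (14.0% of windows), TGANTCA (6.73%), GGGCGG (33.0%), TATAAA (12.3%), ACAAAG (16.5%) and TTGCNNNAA (8.3%). A match describes letters and is not evidence of binding.

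For Adamts12 (ILMN_1234413) the log2 intensity without treatment was 8.29 and 7.76 on the batch 1 arrays and 7.12 and 7.80 on those of batch 2. IL-1α explants gave 7.15 and 6.98 for batch 1 and 6.60 and 6.53 for batch 2. The IL-1α arrays were the lowest of each batch, and over both batches only the untreated replicate 1 array of batch 2 fell within their range. Retinoic acid explants gave 7.93 and 7.92 for batch 1 and 7.81 and 7.81 for batch 2, a narrower spread (SD 0.07) than that of the untreated arrays (SD 0.48). IL-1α explants averaged 6.82 ± 0.30 (SD, n = 4), untreated ones 7.74 ± 0.48 (SD, n = 4) and retinoic acid ones 7.87 ± 0.07 (SD, n = 4). IL-1α over untreated gave −0.92 ± 0.16 (SE; limma, adjusted p = 0.000822), with −0.96 within batch 1 and −0.89 within batch 2, and both batches were called on their own (adjusted p = 0.00358 and 0.0164 from limma). Because of the overlap, the two-sided exact permutation test over both batches, which takes no account of batch, gave p = 0.0571. Retinoic acid over IL-1α gave 1.05 ± 0.16 (SE; limma, adjusted p = 0.000194), a 2.07-fold difference in which no array overlapped. Retinoic acid over untreated gave 0.13 with an interval (95%) of −0.21 to 0.47, and the within-batch values differed in sign, at −0.10 and 0.35.

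The second Adamts12 probe, ILMN_2671344, was not well above background on any array, with raw intensities of 25.7 to 53.5 and a smallest detection p of 0.331. No change was read from it. The probe that was read has no position in the table, so the transcript form it measures was not determined.

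**Figure D3:**
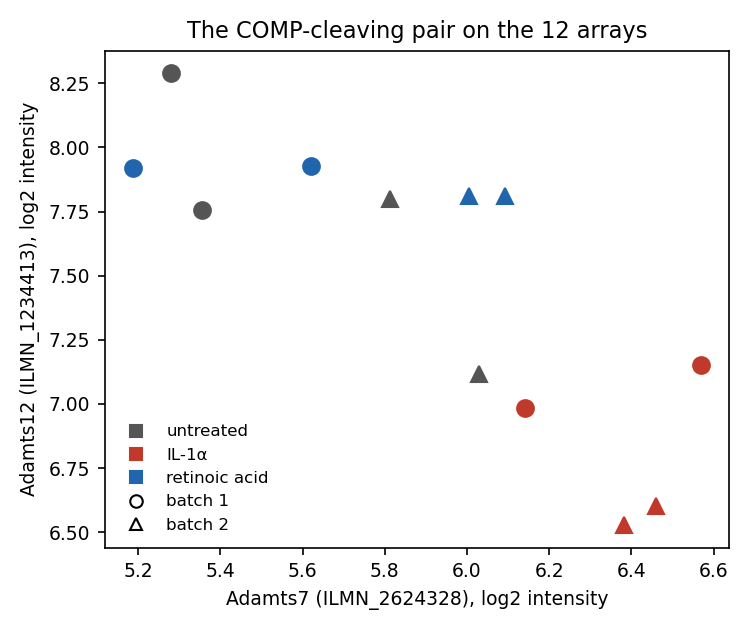
Log2 intensity of Adamts7 (horizontal axis) against Adamts12 (vertical axis) on each of the 12 arrays, coloured by treatment, with circles for batch 1 and triangles for batch 2. The 4 IL-1α arrays sit at the lower right, with Adamts7 at 6.14 or more and Adamts12 at 7.15 or less.

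Read on the same arrays, both genes opposed each other within each batch. After each gene was centred on its batch mean, the correlation of Adamts7 with Adamts12 was −0.77 over 12 arrays, −0.86 over the 6 arrays of batch 1 and −0.86 over those of batch 2. These arrays share the treatments, and the value is a description of them. Values of this size also arose elsewhere in a single batch. Adamts12 with Adamts18 gave −0.92 in batch 2, though 0.21 in batch 1. For their substrate Comp, a single probe fell by 2.25 with retinoic acid against untreated (adjusted p = 1.75e-08 from limma), from a mean of 13.88 to 11.63. With IL-1α the Comp mean was 13.58, a difference of −0.29 that was not called (adjusted p = 0.0784 from limma). Untreated Comp was near the highest value on any array, 14.24, so these differences are not exact sizes.

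Adamts6, whose product cuts fibrillins and other microfibril proteins, was the member lowered by retinoic acid. Probe ILMN_1251521 gave 6.08 and 6.12 for batch 1 and 6.07 and 6.41 for batch 2 without treatment. Retinoic acid explants gave 5.33 and 5.50 for batch 1 and 5.37 and 5.37 for batch 2, all below every untreated and every IL-1α array. IL-1α explants gave 5.97 and 5.86 for batch 1 and 6.37 and 6.39 for batch 2, below both untreated arrays in batch 1 and between them in batch 2. Retinoic acid explants averaged 5.39 ± 0.08 (SD, n = 4), untreated ones 6.17 ± 0.16 (SD, n = 4) and IL-1α ones 6.15 ± 0.27 (SD, n = 4).

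Retinoic acid lowered Adamts6 by 1.71-fold against untreated (−0.78 ± 0.13 SE in log2 intensity; limma, adjusted p = 0.000539). It was the 1 member of the 5 kept that was called in this comparison, in which 17.1% of all kept probes were called lower and 18.2% higher. The difference was −0.68 within batch 1 and −0.87 within batch 2, and the call stood within each (adjusted p = 0.00608 and 0.00324 from limma). Against IL-1α the log2 difference was −0.76 ± 0.13 (SE; limma, adjusted p = 0.000719). Both comparisons gave p = 0.0286 by the two-sided exact permutation of 8 arrays, and 16.9% and 17.7% of all kept probes had groups without overlap in them. The retinoic acid replicate 1 array of batch 1 was below detection, so these folds are not exact sizes. Without the untreated replicate 2 array of batch 2, which read highest, retinoic acid against untreated gave −0.73 (adjusted p = 0.00348 from limma). IL-1α against untreated gave −0.02 with an interval (95%) of −0.31 to 0.27.

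The other Adamts6 probes, ILMN_1243378 and ILMN_1257844, were each detected on 1 array, the untreated replicate 2 array of batch 2. Their log2 intensities were 4.51 to 5.12 and 4.51 to 4.92. These values lie at background, and no difference was read from them.

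**Figure D4:**
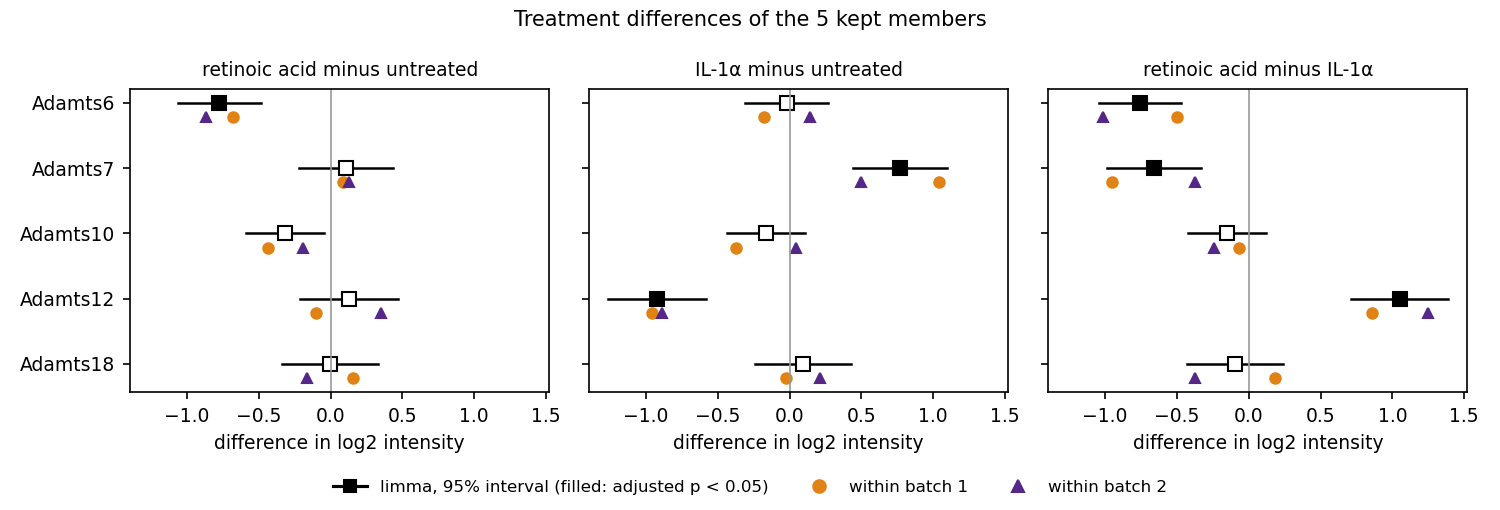
Differences in log2 intensity for the 5 kept members in the 3 comparisons, with squares for the limma estimate over all arrays (filled when the adjusted p is under 0.05), lines for the interval (95%), and circles and triangles for the differences within batch 1 and batch 2. The filled squares are Adamts6 with retinoic acid against untreated, Adamts7 and Adamts12 with IL-1α against untreated, and all of these 3 genes in retinoic acid against IL-1α.

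Adamts10, whose product binds fibrillin and promotes microfibril assembly, was read near its detection limit. Probe ILMN_1229828 had untreated values of 5.14, 4.97, 5.06 and 5.35, IL-1α values of 4.66, 4.71, 5.04 and 5.46, and retinoic acid values of 4.68, 4.56, 4.98 and 5.03, each with batch 1 first. The retinoic acid array was the lower in 4 of 4 pairs with the same-numbered untreated array of its batch, yet the groups overlapped. The log2 difference was −0.32 ± 0.13 (SE; limma, adjusted p = 0.0674), with −0.44 in batch 1, where all arrays were below detection, and −0.20 in batch 2. It passed the threshold within batch 1 (adjusted p = 0.031 from limma), without background correction (adjusted p = 0.0478 from limma) and without the untreated replicate 1 array of batch 2 (adjusted p = 0.046 from limma). The log2 difference was −0.16 for IL-1α against untreated and −0.15 for retinoic acid against IL-1α, neither of them called. The second probe, ILMN_2673134, was detected on 0 arrays.

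Adamts18, which with Adamts16 forms a pair by sequence, did not separate the treatments. Its probe ILMN_1256970 read 5.21, 5.41, 5.33 and 4.88 untreated, 5.48, 5.09, 5.28 and 5.35 with IL-1α, and 5.40, 5.54, 4.90 and 4.98 with retinoic acid, with batch 1 first. The arrays of the 3 treatments overlapped, with the highest and the lowest values in the retinoic acid and the untreated group. The log2 difference of retinoic acid from untreated was −0.00475, with an interval (95%) of −0.34 to 0.33, that of IL-1α from untreated was 0.09 (−0.24 to 0.43) and that of retinoic acid from IL-1α was −0.10 (−0.43 to 0.24). For retinoic acid against untreated the interval runs from 0.79-fold to 1.26-fold, although the addition of 16 compresses a probe this dim. The other probes of the gene, ILMN_1236795 and ILMN_2455596, were detected on 0 arrays.

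Adamts16, Adamts17 and Adamts19 could not be compared. Adamts16 had 2 probes (ILMN_1232477 and ILMN_2651440) with raw intensities of 28.2 to 49.5 and 31.5 to 54.6, detected on 0 of 12 arrays. Adamts19 had 1 probe, ILMN_1227352, with raw intensities of 23.7 to 53.6 and no detection. Adamts17 probe ILMN_3161742 was detected on 3 arrays, the untreated replicate 2 arrays of both batches and the retinoic acid replicate 2 array of batch 1, while ILMN_1251915 was detected on 0. For ILMN_3161742 the detection p was under 0.10 on 7 arrays and 0.0387 at best, so it lay at the edge of detection. For the probes never detected, low transcript and a poor probe cannot be told apart.

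The effects were next compared between the batches, which hold different mouse lines. Limma called 0 of the 5 kept members for a batch difference in any of the 3 treatment comparisons, where 2.86%, 4.82% and 8.76% of all kept probes were called for retinoic acid against untreated, IL-1α against untreated and retinoic acid against IL-1α. At an unadjusted p under 0.05 the counts were 0, 1 and 3 members in the same order, against 14.3%, 20.7% and 23.7% of all kept probes. The 1 member for IL-1α against untreated was Adamts7, whose rise was smaller in batch 2 by 0.54 on the log2 scale (−0.54, interval (95%) −1.07 to −0.00182, adjusted p = 0.24 from limma). Adamts6, Adamts7 and Adamts18 were the 3 members for retinoic acid against IL-1α, with batch differences of −0.51, 0.58 and −0.56 and adjusted p-values from limma of 0.15, 0.173 and 0.191.

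In level, limma called 3 of the 5 kept members between the batches, where 76.3% of all kept probes were called, 33.4% higher in batch 2 and 42.9% lower. Adamts7 was higher in batch 2 by 0.44 (adjusted p = 0.00447 from limma) and Adamts10 by 0.37 (adjusted p = 0.00566 from limma). Adamts10 was below detection on all 6 arrays of batch 1. The lowest detected signal there was 5.29 to 5.48, above the Adamts10 mean of batch 2, 5.15. Neither the size nor the direction of its batch difference is therefore set by these values. Adamts12 was lower in batch 2 (−0.39, adjusted p = 0.0125 from limma), against a median of −0.13 over all kept probes. When the batches were normalized separately, which leaves the brighter signal of batch 2 in place, that median became 0.74 and Adamts12 was 0.74 higher. For each of these genes the 6 arrays of the batches overlapped, whereas they did not for 39.3% of all kept probes.

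Markers of several other cell types moved with the treatments. The sums below follow the brightest markers of each list. The 3 erythroid markers were not called against untreated with either treatment. They summed to 21566 to 27752 untreated, 24811 to 33895.5 with IL-1α and 18889 to 31871 with retinoic acid. Of the kept muscle markers, Tnnt3 was called lower with both treatments and Acta1 with IL-1α only. With IL-1α the summed intensity of 4 endothelial markers was 481 to 832 against 1015 to 1644 untreated. Cdh5 and Pecam1 were called lower, while Kdr (log2 difference 0.15) and Tek (−0.30) were not called. The sum of 4 adipocyte markers was 517 to 929.951 with IL-1α against 2179 to 2818. The 5 fibroblast or synovium markers summed to 3592 to 4355 against 3975 to 5650, with 4 called lower and Pdpn called higher. The 4 osteoblast markers summed to 1538 to 3770 against 7537 to 8987. Of these, Ibsp, Phex and Sp7 were called lower and Bglap1 was not called (log2 difference 0.27). The 6 macrophage and osteoclast markers summed to 7458 to 8182 against 3981 to 6282, with Cd68 and Ctsk called higher, Emr1 called lower (log2 difference −0.78; limma, adjusted p = 0.00682) and Ptprc detected on no array. The 3 neutrophil markers summed to 10820 to 13182 against 7282 to 9037, with 0 of 3 called by limma. With retinoic acid the fibroblast or synovium sum was 1951 to 3252 and the osteoblast sum 1874 to 2071. The adipocyte sum was 903 to 1396 and the macrophage and osteoclast sum 6622 to 9932. In the fibroblast or synovium, osteoblast and adipocyte lists, every kept marker but Bglap1 was called lower with retinoic acid by its brightest probe. In the macrophage and osteoclast list every kept marker but Emr1 was called higher. The endothelial sum with retinoic acid was 1028 to 1211, and 0 of 4 markers were called. The neutrophil sum was 3472 to 12503, with Ngp called lower and S100a8 and S100a9 not called. The part of these markers in the changes of Adamts6, Adamts7 and Adamts12 was not tested.

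The other genes of the family and of the pathway were taken from fixed lists. Of 11 other ADAMTS genes on the array 6 were kept. Adamts5, Adamts8, Adamts13, Adamts14 and Adamts20 did not pass the detection filter, so no change was read for them. By qPCR the study reported Adamts5 raised by both treatments. Retinoic acid raised 3 of the 6 kept genes over untreated (Adamts1, Adamts9 and Adamts15) and lowered Adamts3, with a median log2 difference of 0.83 against 0.02 over all kept probes. IL-1α raised 0 of the 6 and lowered 3 (Adamts2, Adamts3 and Adamts15), with a median of −0.38 against 0.02. The aggrecanase gene Adamts9 had the highest of these values with retinoic acid, a log2 difference of 3.92 (adjusted p = 2.9e-10 from limma). For retinoic acid against IL-1α all 6 were called higher, the direction of Adamts12, whereas Adamts6 and Adamts7 were called lower in that comparison. There 15.2% of all kept probes were called higher and 15.8% lower, and the median of the 6 was 0.98 against −0.03 over all kept probes.

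The counts against untreated, above and below, stand against 18.2% of all kept probes called higher and 17.1% lower with retinoic acid. With IL-1α these shares were 15.2% and 14.1%. All 7 ADAMTS-like genes, which carry the accessory domains without the proteinase, were kept. Retinoic acid raised 4 and lowered 3 over untreated (median log2 difference 0.67), and IL-1α raised 1 and lowered 3 (median 0.02). Of 10 substrates and binding partners of the members, 9 were kept, and retinoic acid raised 2 and lowered 5, among them Comp and the fibrillin gene Fbn1 (median −0.73). IL-1α raised 1 of these and lowered 2, Fbn1 and Ltbp4 (median −0.26). Of the 6 inhibitors and binding proteins kept, retinoic acid raised 1 and lowered 2 (median −0.09), and IL-1α raised 2 and lowered 1 (median −0.11). The gene lowered by IL-1α was Timp3 by its brightest probe, whereas its probe ILMN_1232928 was called higher (0.81; limma, adjusted p = 0.0381). Of 4 kept genes that process or glycosylate these enzymes, each treatment lowered 1, Pcsk6, a proprotein convertase (medians −0.30 with retinoic acid and 0.12 with IL-1α). With IL-1α the Pcsk6 probes ILMN_2540354 and ILMN_2540896 were not called. B3galtl probe ILMN_1256461, not its brightest, was called higher with IL-1α (0.53; limma, adjusted p = 0.0226).

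The genes most like each member were sought over the 12 arrays after centring on the batch mean, as a description without a test. The values are the top 3 picked from 18200 kept probes, on arrays that share the treatments. They do not show joint regulation. For Adamts12 the nearest named genes were Igfbp3 (r = 0.98), which encodes a binding protein of insulin-like growth factors, and Nkd2 (r = 0.97), a Wnt pathway antagonist, behind the unnamed locus LOC100047339 (r = 0.98). For Adamts7 they were Chst3 (r = 0.98), a sulfotransferase of chondroitin sulphate, Zw10 (r = 0.96) and Mia3 (r = 0.95). For Adamts6 they were Il6ra (r = 0.98), the interleukin-6 receptor, Nme5 (r = 0.97) and Creld2 (r = 0.97). For Adamts10 the highest value was 0.97 and for Adamts18 it was 0.91, both with probes near background as one side of the comparison.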

How the data were processed

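Femoral head cartilage RNA was measured on 12 Illumina mouse bead arrays in 6 groups of treatment and batch, taken from the sample titles. Probe intensities were deposited as linear values, neither background-corrected nor normalized. They also deposited a detection score per probe and array, headed as a p-value. The score rose with intensity (Spearman correlation across probes 0.996 to 0.999), so the detection p was taken as 1 minus it. The bead summarising software is not given in the sources used here. All columns had a sample.

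Intensities were corrected and quantile-normalized with neqc (limma 3.58.1, R 4.3.3, offset 16). Of 46632 probes, 18200 were kept, each with a detection p under 0.05 on 4 arrays or more. Following the study's methods, limma (lmFit, eBayes) was fitted to all kept probes with treatment and the 4 combinations of batch and replicate as terms, with Benjamini-Hochberg adjustment at 0.05. Treatment by batch and treatment plus batch were fitted for the batch comparisons. Single values were also tested by exact permutation, without regard to batch. The functions were tested on simulated data. The number of arrays limits precision. Alternatives were other background, normalization, offset, filter and block settings, single batches and the omission of each array.

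The named genes were the 8 members, every probe, and for each kept member the 3 most correlated probes of other genes. Other genes were counted by lists, each gene by its brightest kept probe. The members and lists were chosen with earlier results of these data known. All 8 members matched a symbol in the RefSeq table of GRCm38.p6.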

Additional observations from a re-analysis of the deposited data

Results flagged for a closer look

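The untreated replicate 2 array of batch 2 read 6.41 for Adamts6 (ILMN_1251521), above the other 3 untreated arrays at 6.07 to 6.12, by a gap larger than expected for 4 values (Dixon's criterion). It was the 1 group so marked among 15 groups of 4 arrays, and chance marks about 1 in 20. The same array had the most detected probes, 19485. Without it, IL-1α against untreated gave 0.77 for Adamts7 (limma, adjusted p = 0.00925) and −0.85 for Adamts12 (limma, adjusted p = 0.00577).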

How the results depend on the processing

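Over the changes of settings, the 2 calls of Adamts6 and the 2 of Adamts12 kept their direction and passed the threshold wherever their probes were tested. With no replicate block and no batch term, 1 member was called for IL-1α against untreated and Adamts7 was not (adjusted p = 0.0799 from limma), nor for retinoic acid against IL-1α (adjusted p = 0.113 from limma). No replicate block (treatment plus batch) gave 1, 2 and 3 called members, as with the block, for retinoic acid against untreated, IL-1α against untreated and retinoic acid against IL-1α. Deviations of same-numbered arrays correlated at 0.0027 to 0.062 in batch 1 and at −0.11 to 0.39 in batch 2. Whether the replicate numbers mark a pairing cannot be told from these mixed values. Among probes detected on all 12 arrays, which leaves Adamts12 alone, the counts were 0, 1 and 1, and 1 between batches. Within batch 2, 1 member was called for IL-1α against untreated. For retinoic acid against untreated, 2 were called within batch 1 and without background correction, and 1 to 2 with single arrays left out, the second being Adamts10, called without the untreated replicate 1 array of batch 2. With each batch normalized on its own, which leaves their overall brightness apart, 5 members were called between batches, all higher in batch 2, as were 76.1% of all kept probes (4.49% lower), so these values give no order of the batches. That setting also called 1 (Adamts6) for a batch difference in retinoic acid against IL-1α. Apart from the batch level, shares over all kept probes were not taken for the changed settings. The counts of called members there therefore have no background beside them. At a detection p under 0.01, 3 genes were detected on at least 4 arrays. Scaling to the median shifted the median of all probes by 0.11 for retinoic acid against untreated and by 0.096 for retinoic acid against IL-1α, where it ended the Adamts7 call (−0.40). Differences that were not called changed sign as follows. For IL-1α against untreated, Adamts10 was 0.045 within batch 2, Adamts18 −0.026 within batch 1 (−0.019 to 0.25 with single arrays left out) and Adamts6 0.14 within batch 2 and 0.0053 with batches normalized separately (−0.12 to 0.086). For retinoic acid against untreated, Adamts12 was −0.10 within batch 1 (−0.037 to 0.25), Adamts18 0.16 within batch 1 and 0.000183 at an offset of 50 (−0.12 to 0.11), and Adamts7 −0.018 to 0.20. For retinoic acid against IL-1α, Adamts18 was 0.18 within batch 1 (−0.25 to 0.021). The cause was not tested. Dim signal limits 4 of the 5 kept probes, which were not detected on every array.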
